A study of Homo sapiens with 9 samples.

Results

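The 10 genes that make, degrade or bind hyaluronan are described through 9 RNA sequencing libraries of HEK293T cells. The set was chosen by the measured CPM of HAS2, a hyaluronan synthase, which had already been seen to fall strongly in both clones. The other members were taken for their function, and all 10 of the 10 symbols matched a gene among the 60683 in the count tables. HEK293T is a widely used cell line derived from human embryonic kidney, and it makes SV40 large T antigen. Parental cells held no reporter, whereas clone 15 and clone 37 each grew from a single sorted cell after piggyBac transposition of a pair of luciferase reporters. In both clones the NanoLuc reporter carried 60 CAG units behind an ATG and ahead of a Myc tag, and the firefly luciferase reporter had the same layout with 0 CAG units. Per the labels, clone 15 expressed the integrated reporters at a low level and clone 37 at a high level, and each group had 3 replicate libraries. Each level was represented by a single clone, so reporter level and any other difference between the clones cannot be told apart. Reads were 75 bp long for parental and clone 37 but 100 bp for clone 15, so a difference of clone 15 cannot be told apart from one of read length.

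Hyaluronan is a long unsulphated glycosaminoglycan of alternating glucuronic acid and N-acetylglucosamine. The synthases HAS1, HAS2 and HAS3 build it at the plasma membrane from UDP-glucuronic acid, which UGDH makes, and UDP-N-acetylglucosamine, the product of the hexosamine pathway. HYAL1 cuts it in lysosomes, HYAL2 at the cell surface, and CEMIP and CEMIP2 take part in its breakdown outside or at the surface of the cell. CD44 is its main surface receptor, and HMMR, also called RHAMM, binds hyaluronan and is best known inside dividing cells as a spindle protein.

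The files held raw counts per gene. Strand-specific counts summed to between 10809034 and 13902872 in the parental libraries, 10334090 and 12352171 in clone 37, and 18654063 and 38093340 in clone 15. Counts are also given as CPM, scaled to the total gene count of the library, and levels of different genes are compared as TPM, which divides by exon length as well. Error terms after ± are SDs over the n = 3 libraries of a group. All 7 genes listed as reported in HEK293 cells (PAX2, LHX1, VIM, KRT8, KRT18, CDH2 and NEFM) were detected in each library, with summed levels of 1168 to 1433 CPM in parental, 805 to 871 in clone 37 and 3407 to 3596 in clone 15. NEFM, a neurofilament chain, carried most of this difference, at 475 to 633, 135 to 139 and 2646 to 2810 CPM, and the other 6 genes summed to 693 to 801, 668 to 736 and 759 to 786 CPM. Summed markers of leukocytes (4 genes), endothelium (3 genes) and hepatocytes (2 genes) stayed at or below 0.650 CPM in each library. The fibroblast list set clone 15 apart: COL1A1, COL1A2, LUM and DCN summed to 54.4 to 168 CPM there, against 34.7 to 37.8 in parental and 18.9 to 20.9 in clone 37. COL1A2, a type I collagen chain, had 0 counts in all 6 parental and clone 37 libraries and 213, 300 and 1059 counts in clone 15 replicates 1, 2 and 3, or 5.59, 12.2 and 56.8 CPM. Parental replicate 2 also stood apart from the other parental libraries. The chi-square over degrees of freedom between libraries was 11.5 and 11.6 for its pairs and 1.99 for the other parental pair, against 4.53 to 9.97 within clone 15 and 1.77 to 1.93 within clone 37. Of its read pairs 19.2% were assigned to no exon on the strand used, against 26.4% and 28.8% in the other parental libraries.

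HAS2 was the dominant synthase of the parental cells and was at a low level in both clones. It was counted 702, 847 and 751 times in the parental libraries, 75, 43 and 54 times in those of clone 15 and 55, 48 and 49 times in those of clone 37. Scaled to library size these were 64.9, 60.9 and 57.5 CPM in parental cells, 1.97, 1.75 and 2.89 in clone 15, and 5.02, 4.64 and 3.97 in clone 37. Every clone library lay far below every parental library, and every clone 15 library lay below every clone 37 library. The fitted log2 fold change from parental was -3.78 (SE 0.11) in clone 37, 13.7-fold lower, and -4.86 (SE 0.14) in clone 15, 29.1-fold lower. Within clone 15, HAS2 was highest in replicate 3, as was the fibroblast list, whose part in this was not tested, and without that library the value in clone 15 was -5.03. Because the fall of HAS2 is what led to the choice of these genes, it is described here without a test. Among all genes tested, 49 had a larger fitted fall in clone 37 and 47 in clone 15. HAS2 (ENSG00000170961) lies on chromosome 8, 121612116 to 121641390, on the minus strand of GRCh38 as annotated by GENCODE 29. In bulk RNA, fewer cells expressing a gene and less of its RNA per cell cannot be told apart.

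**Figure D1:**
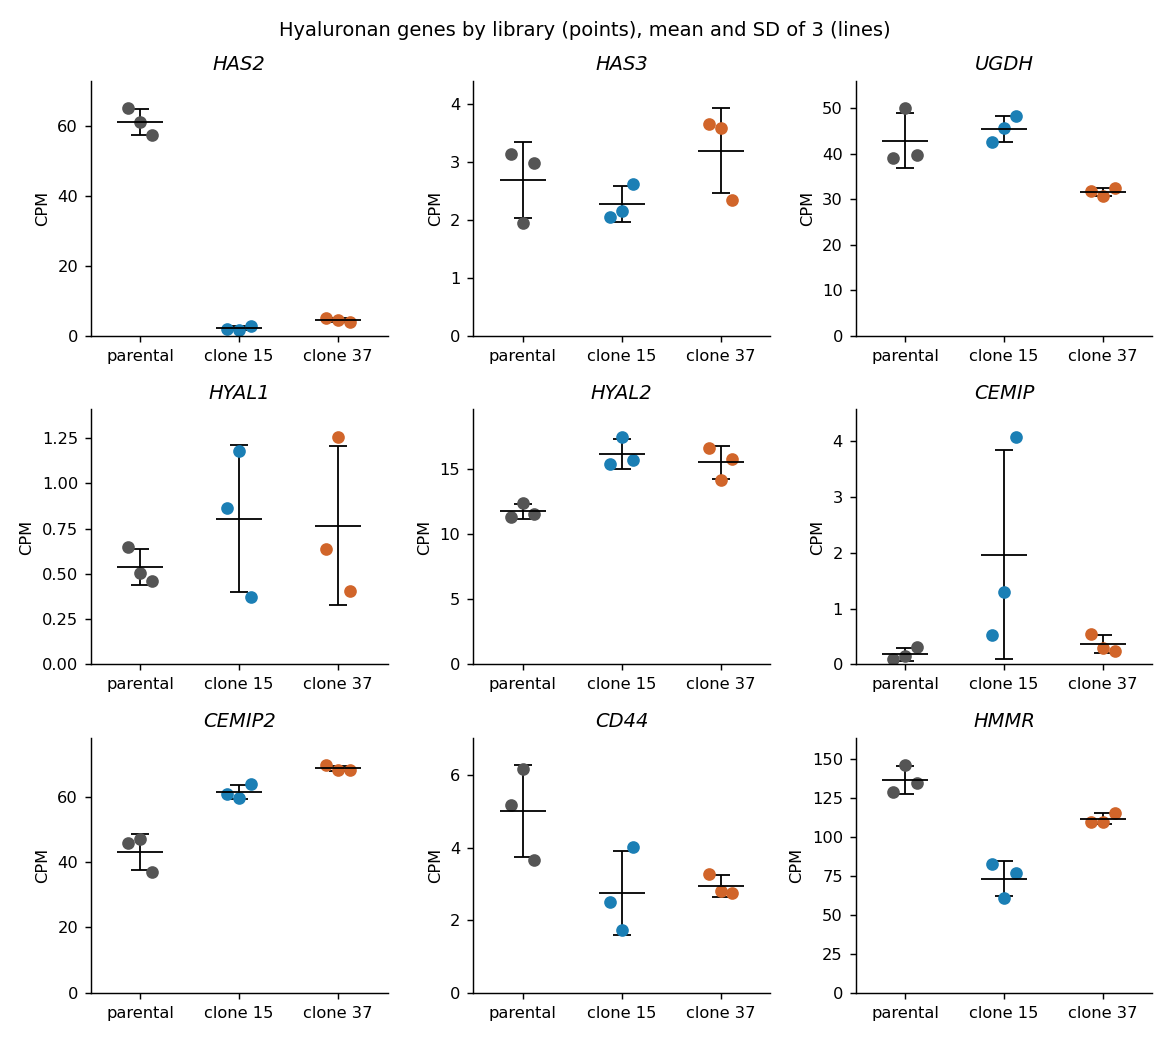
CPM of 9 of the hyaluronan genes in each library (points; 3 per group, replicates 1 to 3 from left to right), with the mean and SD of each group as black lines and a separate axis from 0 for each gene. HAS2 is at 57.5 to 64.9 CPM in parental and at 1.75 to 5.02 in the clones, HYAL2 and CEMIP2 are higher and HMMR lower in each clone library than in each parental one, and CEMIP is highest in clone 15 replicate 3; HAS1 had 0 counts and is not drawn.

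The 2 clones did not share the same residual HAS2 level. It was higher in clone 37 than in clone 15, 4.54 ± 0.535 against 2.203 ± 0.609 CPM, by a log2 fold change of 1.07 (SE 0.22). Without clone 15 replicate 3 the difference was 1.27. These values are among those that led to the choice of HAS2, so this difference too is described without a test.

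Neither of the other synthases was called higher or lower in a clone than in parental cells with strand-specific counts. HAS1 (ENSG00000105509, chromosome 19, 51713112 to 51723994) had 0 counts in all 9 libraries, where a floor of 3 counts corresponds to 0.0788 to 0.290 CPM. Such floors, and the counting intervals below, cover counting error only. HAS3 (ENSG00000103044, chromosome 16, 69105564 to 69118719) was counted 34, 27 and 39 times in the parental libraries, 78, 53 and 49 times in those of clone 15 and 40, 37 and 29 times in those of clone 37. As CPM, HAS3 was 3.15, 1.94 and 2.99 in parental cells, 2.05, 2.15 and 2.63 in clone 15, and 3.65, 3.58 and 2.35 in clone 37, so each group overlapped the others. FDR is used below for the adjusted p (Benjamini-Hochberg) of edgeR's quasi-likelihood test, with a threshold of 0.05. The change of HAS3 from parental was 0.22 (95% interval -0.27 to 0.72, FDR 0.476) in clone 37 and -0.27 (-0.77 to 0.23, FDR 0.387) in clone 15 on the log2 scale. With unstranded counts HAS3 was 0.51 higher in clone 37 (FDR 0.0206).

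Between the clones HAS3 was 0.50 higher in clone 37 on the log2 scale (SE 0.23), which missed the threshold (edgeR FDR 0.0695). That call depended on the counting and on single libraries. It passed without clone 15 replicate 3 (0.59, FDR 0.042), without clone 37 replicate 3 (0.68, FDR 0.031) and with unstranded counts (0.75, FDR 2.57e-05). Exons of CHTF8 overlap HAS3 on the opposite strand, and unstranded counts cannot separate reads from such a pair.

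With HAS2 low in the clones, the mix of synthase transcripts differed between the groups. Per exon length HAS2 stood at 58.2, 54.7 and 52.3 TPM in parental cells, 1.66, 1.49 and 2.48 in clone 15, and 4.64, 4.29 and 3.64 in clone 37. HAS3 stood at 2.23, 1.38 and 2.15 TPM in parental cells, 1.37, 1.46 and 1.78 in clone 15, and 2.67, 2.62 and 1.70 in clone 37. HAS2 thus made up 96.6% ± 0.796 of synthase TPM in parental, 64.5% ± 3.14 in clone 37 and 54.5% ± 3.80 in clone 15, and the 3 groups did not overlap in this share. Summed over the synthases, the level was 57.0 ± 3.11 TPM in parental, 6.52 ± 1.04 in clone 37 and 3.41 ± 0.738 in clone 15. These shares rest on the fall of HAS2 and are given as a description.

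**Figure D2:**
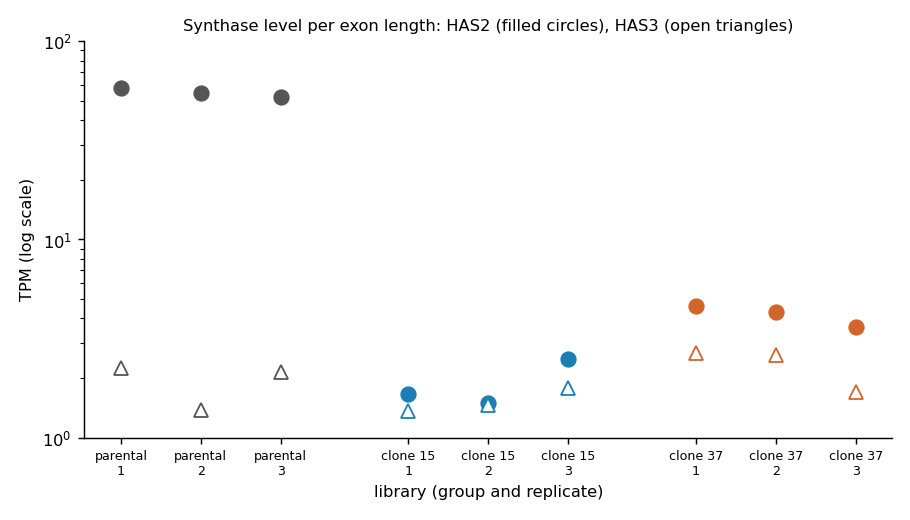
TPM of HAS2 (filled circles) and HAS3 (open triangles) in each of the 9 libraries on a log axis, by group and replicate. HAS2 is 24.3 to 39.6 times HAS3 in the parental libraries and 1.02 to 2.13 times HAS3 in the clones, while the HAS3 symbols of the 3 groups overlap.

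The antisense RNA HAS2-AS1 (ENSG00000248690, chromosome 8, 121639293 to 121993876, plus strand) overlaps the start of HAS2. It had 10, 10 and 14 counts in parental, 5, 2 and 5 in the deeper clone 15 libraries, and 1, 1 and 0 in clone 37. Pooled counts gave a parental level 6.10 times that of clone 15 (exact binomial 95% interval 3.08 to 12.9) and 15.1 times that of clone 37 (3.88 to 130.1). Exons of the pair overlap on opposite strands, and 92.6% to 94.0% of stranded gene counts lay on the strand used, so whether HAS2 reads assigned to the other strand are among these few counts was not tested.

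Beside its neighbours on the chromosome HAS2 was the lowest, which is a description, since HAS2 was chosen for its fall. Of the 100 tested genes nearest to it on chromosome 8, which reach 20.4 Mb away in clone 37 and 19.4 Mb in clone 15, the median log2 fold change was 0.11 in clone 37 and -0.53 in clone 15. The lowest neighbour was at -2.59 in clone 37 and at -2.58, HAS2-AS1 itself, in clone 15, so 0 of the 100 lay below HAS2 in either clone. The nearest tested protein-coding genes on its sides are SNTB1, a syntrophin of the dystrophin complex, and ZHX2, a zinc finger and homeobox repressor. SNTB1 had log2 fold changes of -0.75 (SE 0.11, edgeR FDR 2.58e-05) in clone 37 and -0.85 (SE 0.12, FDR 2.88e-06) in clone 15. ZHX2 had values of -0.16 (SE 0.08, edgeR FDR 0.0960) and -0.14 (SE 0.10, FDR 0.263). Between the clones, the median of the 100 neighbours was 0.61 higher in clone 37, beside 1.07 for HAS2.

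**Figure D3:**
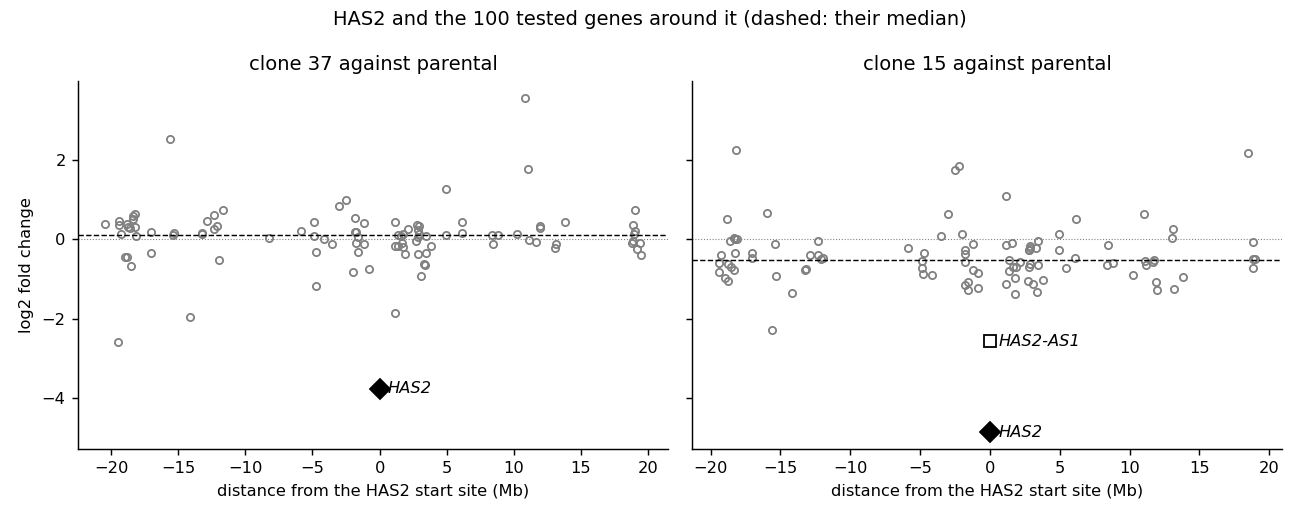
Log2 fold change from parental (vertical) of HAS2 (diamond), HAS2-AS1 (open square, tested in clone 15 only) and the other tested genes nearest to HAS2 (open circles) against the distance of their start sites from that of HAS2 in Mb, for clone 37 (left) and clone 15 (right); the dashed line is the median of the 100 neighbours. HAS2 is the lowest point in both panels, and the dashed line is at 0.11 in clone 37 and -0.53 in clone 15.

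Of the 10 members, 7 could be tested in clone 37 against parental and 8 in clone 15 against parental. HAS1 was too sparse everywhere, CEMIP in each comparison and HYAL1 in clone 37 against parental. In clone 37, 6 members passed the threshold, 2 higher and 4 lower, where 54% of the 16501 genes tested passed. In clone 15, 5 members passed, 2 higher and 3 lower, where 51.4% of 17703 passed. Beside HAS2 these were 5 and 4 members, and with so many genes called overall these counts are given as a description, followed by each member. Without HAS2, whose fall led to the choice of the set, the tested members had a median log2 change of -0.045 in clone 37 (6 members) and 0.04 in clone 15 (7 members), against 0.02 and 0.02 over all genes tested. The libraries of clone and parental did not overlap for 5 of these 6 members in clone 37, beside 61.7% of all genes, and for 3 of these 7 in clone 15, beside 59.5%. Both comparisons share the parental libraries.

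**Figure D4:**
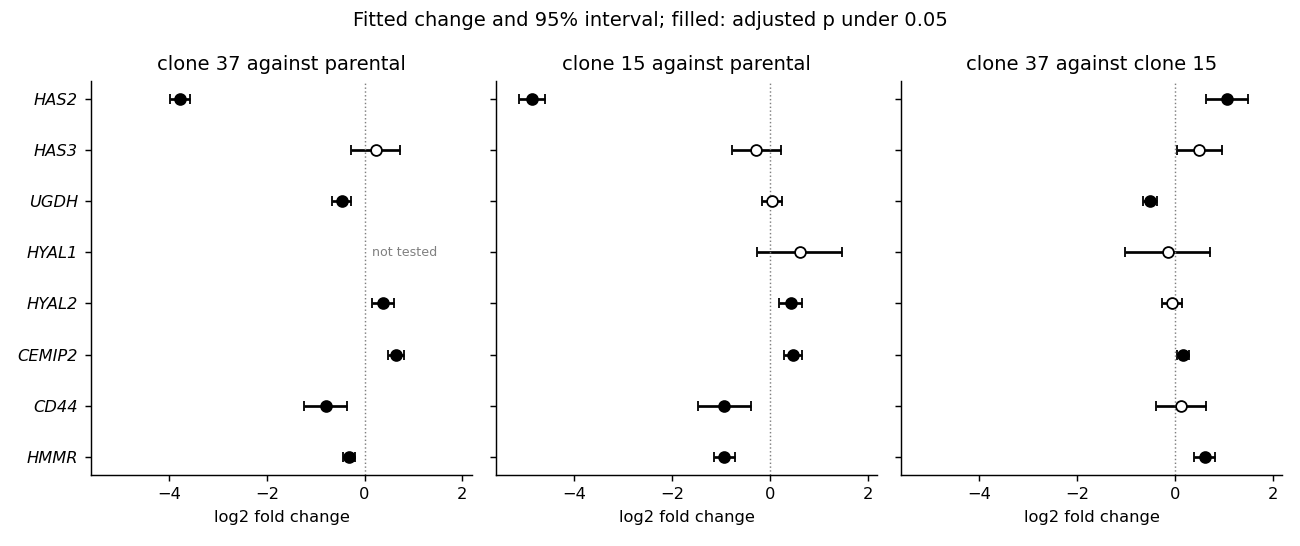
Fitted log2 fold change of the tested members in the 3 comparisons, with 95% intervals as bars and filled symbols where the FDR was under 0.05. HAS2 is at -3.78 and -4.86 against parental, all other values lie between -0.93 and 0.64 there, and UGDH is lower in clone 37 than in either other group. The bars and filled symbols of HAS2 are a description and no test, since its values led to the choice of the set.

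UGDH (ENSG00000109814, chromosome 4, 39498755 to 39528311), which oxidises UDP-glucose to UDP-glucuronic acid, was lower in clone 37 than in either other group. It stood at 39.1, 49.99 and 39.6 CPM in parental cells, 42.5, 45.6 and 48.3 in clone 15, and 31.8, 30.8 and 32.5 in clone 37. Clone 37 lay below every other library, and clone 15 overlapped parental. The log2 fold change was -0.47 (SE 0.10, edgeR FDR 0.000581) in clone 37 and 0.04 (95% interval -0.16 to 0.25, FDR 0.754) in clone 15. The direct difference between the clones was -0.51 (SE 0.08, edgeR FDR 1.48e-06). UGDH was highest in parental replicate 2, and without that library the values were -0.34 in clone 37 (edgeR FDR 4.46e-05) and 0.20 in clone 15 (FDR 0.0667).

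The list around the UDP-sugars holds enzymes that feed them, the nucleotide-sugar transporter SLC35D1 and UXS1, which uses up UDP-glucuronic acid. Of its 13 genes, all tested, 7 were called lower and 1 higher in clone 37, and 10 lower and 0 higher in clone 15. Over all genes, 27.3% were called lower and 26.7% higher in clone 37, and 26.2% lower and 25.1% higher in clone 15. The list had a median of -0.22 (clone 37) and -0.30 (clone 15) on the log2 scale. Without SLC35D1 and UXS1, 6 of the other 11 genes were called lower and 1 higher in clone 37, and 8 lower and 0 higher in clone 15. Leaving out parental replicate 2 gave 2 called higher in clone 37, and leaving out clone 15 replicate 1 gave 1 called higher in clone 15. HK2, the inducible hexokinase, fell from 183 ± 24.5 CPM in parental to 85.1 ± 5.41 in clone 37, and to 75.7 ± 6.05 in clone 15. On the log2 scale the changes were -1.13 (SE 0.10, edgeR FDR 1.95e-06) and -1.30 (SE 0.10, FDR 4.79e-10). PGM1, which interconverts glucose 1- and 6-phosphate, fell by 0.78 on the log2 scale in clone 37 (SE 0.07, edgeR FDR 3e-08), from 101 ± 5.69 to 60.3 ± 2.73 CPM.

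GFPT1 and GFPT2, the isozymes that commit fructose 6-phosphate to the hexosamine pathway, set the clones apart. GFPT1 fell in clone 15, from 122 ± 8.12 to 53.4 ± 1.27 CPM, a log2 fold change of -1.23 (SE 0.08, edgeR FDR 1.15e-11), and was 1.08 higher in clone 37 than in clone 15 (SE 0.06, FDR 7.3e-15). GFPT2 stood at 40.0 ± 1.28 CPM in parental, 30.5 ± 2.76 in clone 15 and 59.2 ± 1.77 in clone 37. It fell by 0.42 in clone 15 (edgeR FDR 0.000514) and rose by 0.54 in clone 37 (FDR 2.7e-06) on the log2 scale, and the clones differed by 0.97 (SE 0.07, FDR 7.61e-12). Between the clones 5 genes of the list were called higher and 2 lower in clone 37, where 28.7% and 29% of all genes were; without clone 15 replicate 2 the count called lower was 4.

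HYAL2 and CEMIP2, which take part in breakdown at the cell surface, rose in both clones. HYAL2 (ENSG00000068001, chromosome 3, 50317790 to 50322906), a GPI-anchored hyaluronidase, had 11.3, 12.4 and 11.6 CPM in parental cells, 15.4, 17.5 and 15.7 in clone 15, and 16.6, 14.1 and 15.8 in clone 37. Each clone library was above each parental library, and the clones overlapped. The log2 fold change was 0.38 (SE 0.11, edgeR FDR 0.00953) in clone 37 and 0.43 (SE 0.12, FDR 0.00560) in clone 15. In clone 37 the call was lost without parental replicate 3 (0.32, FDR 0.0506), clone 37 replicate 1 (0.32, FDR 0.0586) or clone 37 replicate 3 (0.33, FDR 0.0578). TUSC2 overlaps exons of HYAL2 on the same strand, and 11.005% of the 75-base words of its longest transcript occur in another gene, so reads from such stretches may go uncounted.

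CEMIP2 (ENSG00000135048, chromosome 9, 71683366 to 71816690), a transmembrane relative of CEMIP also called TMEM2, had 45.7, 47.0 and 36.8 CPM in parental cells, 60.7, 59.7 and 63.8 in clone 15, and 69.6, 68.1 and 68.2 in clone 37. The 3 groups did not overlap. CEMIP2 rose by 0.64 (SE 0.08, edgeR FDR 5.93e-06) in clone 37 and by 0.47 (SE 0.10, FDR 0.000235) in clone 15 on the log2 scale. The further difference of 0.17 between the clones (SE 0.06, edgeR FDR 0.0248) was small and lost its call in 7 of 14 alternatives, among them leaving out clone 15 replicate 1 (0.15) or 2 (0.12) or clone 37 replicate 1 (0.17) or 3 (0.16).

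HYAL1 and CEMIP were near the limit of what these depths can show. HYAL1 (ENSG00000114378, chromosome 3, 50299889 to 50312381), the lysosomal hyaluronidase, was counted 7, 7 and 6 times in the parental libraries, 33, 29 and 7 times in those of clone 15 and 7, 13 and 5 times in those of clone 37, or 0.375 to 1.26 CPM over the 9 libraries. Its change in clone 15 was 0.61 with a 95% interval of -0.27 to 1.49 (edgeR FDR 0.264), and 0.90 (FDR 0.0910) without clone 15 replicate 3, where it was lowest. A difference was not detectable in either fit.

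CEMIP (ENSG00000103888, chromosome 15, 80779343 to 80951776), a secreted or surface protein needed for hyaluronan depolymerisation in fibroblasts, differed more within clone 15 than between the other groups. It was counted 1, 2 and 4 times in the parental libraries, 6, 3 and 3 times in those of clone 37 and 20, 32 and 76 times in clone 15 replicates 1, 2 and 3. As CPM these were 0.0925 to 0.306, 0.243 to 0.548, and 0.525, 1.30 and 4.07. With no filter on low counts, CEMIP was 3.24 higher in clone 15 than in parental on the log2 scale (SE 0.53, edgeR FDR 6.21e-08), and 0.88 higher in clone 37 (FDR 0.456). Without clone 15 replicate 3 the value in clone 15 was 2.18 (SE 0.61, edgeR FDR 0.00270), an alternative added after the data were seen. With the filter on, CEMIP entered the fits that left out 1 parental library (2.96 to 3.79) or clone 15 replicate 1 (3.76). Its parental counts were below the filter's limit, so it entered through clone 15, where it is high. These values are therefore given without a test. With unstranded counts CEMIP was called at a smaller value (0.81, edgeR FDR 8.44e-05). Exons of MESD and ENSG00000259546 overlap CEMIP on the opposite strand, and unstranded counts cannot separate reads from such genes. Clone 37 differed from clone 15 by -2.33 with no filter (edgeR FDR 0.0268). The difference was -1.26 when clone 15 replicate 3 was also left out (FDR 0.0491). CEMIP entered the filtered fits without 1 clone 37 library (-2.74 to -2.10) or without clone 15 replicate 1 (-2.84) through clone 15 too. These values are likewise given without a test. With unstranded counts, which hold the same overlap, the difference was -0.90 (edgeR FDR 1.51e-06). The pooled ratio of clone 15 to parental was 8.49, with a 95% exact binomial interval of 4.003 to 21.5, and 4.47 (2.02 to 11.7) without clone 15 replicate 3. Like CEMIP, each gene of the fibroblast list was highest within clone 15 in replicate 3, but DCN did not rise from replicate 1 to 2. In clone 15 replicates 1, 2 and 3 COL1A2 was at 5.59, 12.2 and 56.8 CPM and COL1A1 at 48.3, 61.4 and 108. LUM, a small matrix proteoglycan, was at 0.394, 0.772 and 1.45, below parental cells, and DCN, another, at 0.158, 0.122 and 1.23. In parental cells COL1A1 was at 32.9 to 35.5 CPM and LUM at 1.73 to 2.41, DCN was at 0 to 0.144, and COL1A2 was at 0. The part of these markers in the CEMIP values was not tested.

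**Figure D5:**
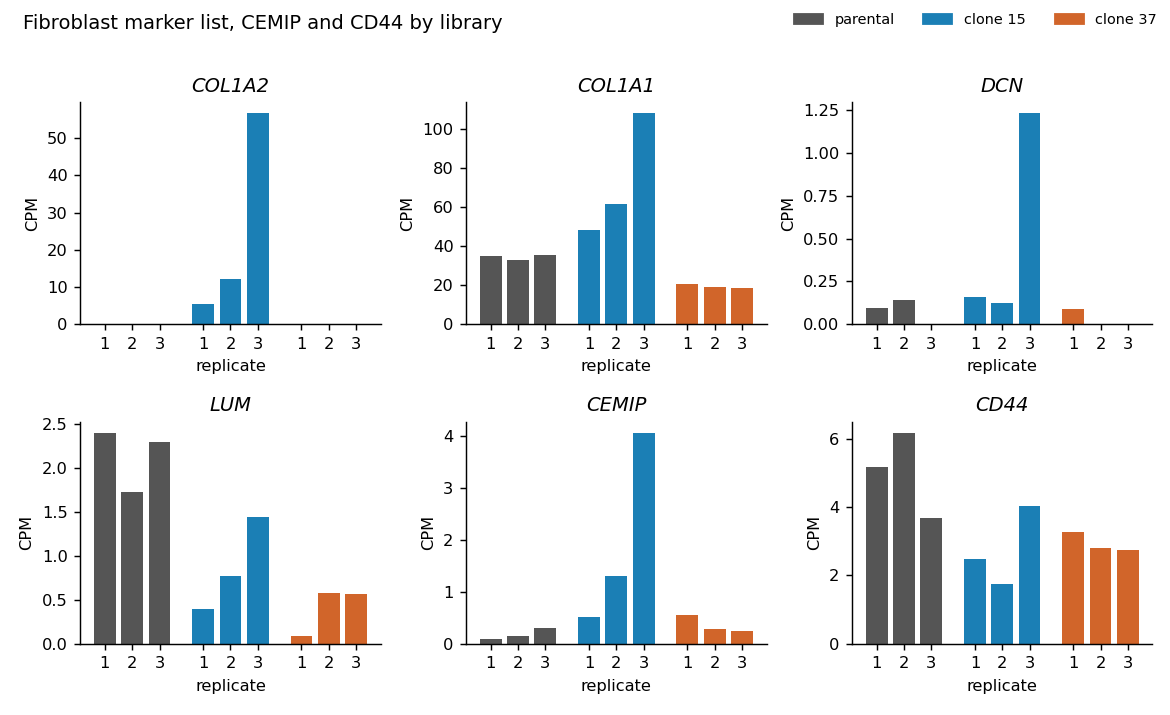
CPM of the 4 genes of the fibroblast list and of CEMIP and CD44 in each library (bars, axes from 0; replicates 1 to 3 of parental, clone 15 and clone 37). COL1A2 is at 0 outside clone 15, and COL1A2, COL1A1, DCN, CEMIP and CD44 are each higher in clone 15 replicate 3 than in the other 2 clone 15 libraries.

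The list of other hyaluronidases and of lysosomal exoglycosidases went both ways. Of its 6 genes 4 were tested. In clone 37 1 was called higher and 2 lower, beside 26.7% and 27.3% of all genes, and in clone 15 1 higher and 1 lower, beside 25.1% and 26.2%. Without parental replicate 1 or clone 37 replicate 2 only 1 was called lower in clone 37, and without parental replicate 2 the count called lower in clone 15 was 2. HYAL3, a weakly active hyaluronidase relative, rose by 0.77 (SE 0.21, edgeR FDR 0.00506) in clone 37, from 3.17 ± 0.693 to 5.52 ± 0.963 CPM. GUSB, the lysosomal glucuronidase, fell by 0.51 there (SE 0.08, edgeR FDR 3.07e-05). HEXA, the alpha subunit of beta-hexosaminidase, rose by 0.63 in clone 15 (SE 0.09, edgeR FDR 1.11e-06), from 38.5 ± 2.64 to 60.8 ± 2.02 CPM. HYAL4 and SPAM1 had 1 and 0 counts over all libraries.

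CD44 and HMMR were both lower in the clones. CD44 (ENSG00000026508, chromosome 11, 35138870 to 35232402) was counted 56, 86 and 48 times in the parental libraries, 95, 43 and 75 times in those of clone 15 and 36, 29 and 34 times in those of clone 37. As CPM it stood at 5.18, 6.19 and 3.67 in parental cells, 2.49, 1.75 and 4.02 in clone 15, and 3.29, 2.81 and 2.75 in clone 37. Clone 37 lay below parental, whereas clone 15 replicate 3 reached into the parental range, and parental replicate 2 was the highest. The log2 fold change was -0.79 (SE 0.23, edgeR FDR 0.00674) in clone 37 and -0.93 (SE 0.28, FDR 0.00853) in clone 15. Without parental replicate 2 the value in clone 37 was -0.59 (edgeR FDR 0.0157). Without clone 15 replicate 3, in which the fibroblast list was highest, the value in clone 15 was -1.24 (FDR 0.000648). The call in clone 15 was lost without clone 15 replicate 1 (-0.84, FDR 0.0614), clone 15 replicate 2 (-0.67, FDR 0.0523) or parental replicate 2 (-0.71, FDR 0.0610). Between the clones CD44 differed by 0.13 (95% interval -0.38 to 0.65, edgeR FDR 0.686).

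HMMR (ENSG00000072571, chromosome 5, 163460203 to 163491945) was the most abundant member, with its highest level in parental cells and its lowest in clone 15. It had 129, 146 and 135 CPM in parental cells, 110, 110 and 115 in clone 37, and 82.4, 60.5 and 76.8 in clone 15. The 3 groups did not overlap, with clone 37 between the others. The log2 fold change was -0.32 (SE 0.06, edgeR FDR 0.000398) in clone 37 and -0.93 (SE 0.11, FDR 9.76e-07) in clone 15, and clone 37 was 0.61 above clone 15 (SE 0.11, FDR 0.000761).

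A list of 12 mitotic genes, all tested, moved both ways. In clone 37 5 were called higher and 3 lower, and in clone 15 5 higher and 5 lower, with medians of 0.06 and 0.08. Without clone 37 replicate 3 the count called higher in clone 37 was 1, and it was 3 without clone 37 replicate 1 or parental replicate 1 or 3. The count called lower in clone 37 was 1 without clone 37 replicate 1 or 2. In clone 15 the count called higher was 3 without parental replicate 1 or 3 or clone 15 replicate 3, and the count called lower was 3 without clone 15 replicate 2. Under alternatives that kept all libraries, the count called higher also went as low as 3 in either clone. The share called was 66.7% and 83.3%, against 54% and 51.4% over all genes. BUB1, a spindle checkpoint kinase, fell with HMMR, by 0.42 in clone 37 (SE 0.06, edgeR FDR 6.73e-06) and 0.49 in clone 15 (SE 0.08, FDR 2.89e-05). MKI67, the proliferation marker Ki-67, rose by 0.27 in clone 37 (edgeR FDR 0.00232), a call lost without clone 37 replicate 3 (0.24, FDR 0.0519). KIF20A, a kinesin of cytokinesis, rose by 0.62 in clone 15 (SE 0.08, edgeR FDR 4.78e-07).

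The sequence just before the RefSeq start site is shown for the 4 members that moved the same way in either clone and were not the reason for the choice: HYAL2 and CEMIP2, which rose, and CD44 and HMMR, which fell. RefSeq on GRCh38.p14 gave a promoter for 9 of the 10 members. Capitals mark matches, on either strand, to a GC box spelled GGGCGG, to a CCAAT box spelled by its name, to a TATA box spelled TATAAA, or to the cell cycle homology region known from mitotic genes, spelled TTTGAA.
HYAL2: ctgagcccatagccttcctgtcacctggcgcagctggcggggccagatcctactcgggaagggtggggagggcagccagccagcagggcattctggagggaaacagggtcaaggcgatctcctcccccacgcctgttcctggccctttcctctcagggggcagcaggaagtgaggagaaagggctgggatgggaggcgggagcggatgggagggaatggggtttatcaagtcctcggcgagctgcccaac
CEMIP2: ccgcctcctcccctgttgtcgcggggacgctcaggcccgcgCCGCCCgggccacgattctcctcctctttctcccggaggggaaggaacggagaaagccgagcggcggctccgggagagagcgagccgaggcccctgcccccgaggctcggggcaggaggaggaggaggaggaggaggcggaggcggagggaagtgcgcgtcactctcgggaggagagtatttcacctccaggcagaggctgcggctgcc
CD44: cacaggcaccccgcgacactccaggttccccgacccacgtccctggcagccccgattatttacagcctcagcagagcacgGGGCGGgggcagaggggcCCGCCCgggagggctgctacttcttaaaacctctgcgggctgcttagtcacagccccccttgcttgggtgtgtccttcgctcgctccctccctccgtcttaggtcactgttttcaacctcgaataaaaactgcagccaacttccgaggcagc
HMMR: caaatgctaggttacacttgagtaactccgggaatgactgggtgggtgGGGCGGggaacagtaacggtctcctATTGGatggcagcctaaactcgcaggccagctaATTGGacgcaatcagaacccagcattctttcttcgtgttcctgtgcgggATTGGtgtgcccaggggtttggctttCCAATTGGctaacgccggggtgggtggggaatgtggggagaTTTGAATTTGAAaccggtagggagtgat

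Each stretch holds 250 bases and is written 5′ to 3′ on the strand of its gene: chr3:50322746-50322995 (minus) for HYAL2, chr9:71768514-71768763 (minus) for CEMIP2, chr11:35138921-35139170 (plus) for CD44 and chr5:163460382-163460631 (plus) for HMMR. HMMR differed from the other 3 in its matches, with 5 CCAAT boxes, of which 2 overlap, 2 adjoining TTTGAA words and 1 GC box. CD44 had 2 GC boxes, CEMIP2 had 1, and HYAL2 had no match to any of the 4 words in this window. Among 35116 such windows, 32.0% held a CCAAT box, 13.3% TTTGAA, 42.6% a GC box and 10.7% a TATA box. A match describes letters and shows no binding. The GENCODE span of each of these 4 genes begins upstream of the RefSeq start used here. For CEMIP2 it reaches to 71816690, so the window lies well inside the span. Which start these cells use was not tested.

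Of 6 further hyaluronan receptors, LAYN, a C-type lectin that binds hyaluronan, was the single one with enough counts to test. It stood at 19.6 ± 0.601 CPM in parental, 21.9 ± 0.436 in clone 15 and 17.9 ± 1.29 in clone 37, and was called in neither comparison with parental (edgeR FDR 0.167 and 0.327). Between the clones it was 0.28 lower in clone 37 (SE 0.09, edgeR FDR 0.0105), a call lost without clone 37 replicate 3 (-0.24, FDR 0.0724). LYVE1, STAB2, TLR2 and TLR4 had at most 2 counts in any library, and STAB1 had at most 16.

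Among matrix proteins that bind hyaluronan, VCAN fell in both clones. Of 17 listed genes, 6 were tested in clone 37, with 4 called lower and 0 higher, and 7 in clone 15, with 4 lower and 1 higher, beside 27.3% lower and 26.7% higher of all genes in clone 37 and 26.2% and 25.1% in clone 15. A gene with enough reads in the parental libraries alone enters such a count only if it is lower in the clone, so the counts do not show a direction of the list. With unstranded counts 2 were called higher in clone 37 and 3 in clone 15. The 4 lower in clone 37 were VCAN, PTX3, ITIH5 and ACAN (-1.50). ACAN differed within clone 37, at 1.46, 0.387 and 0.162 CPM in replicates 1, 2 and 3 against 1.57 to 1.99 in parental cells. Its value was -2.78 without clone 37 replicate 1, and the call was lost without replicate 2 (-1.25) or 3 (-1.02). The filter's limit, 10 counts at the median library size or 0.858 CPM in this comparison, was reached by 3 parental libraries for both ACAN and PTX3 and by 1 and 0 libraries of clone 37, so their values in clone 37 are given as a description, with no test. In clone 15 VCAN, PTX3, ITIH5 and HAPLN2 (-1.12, edgeR FDR 0.00477) were lower and HAPLN3 was higher (0.45, FDR 0.00231); the HAPLN genes encode link proteins and are named here after their values were seen. VCAN, the large proteoglycan versican, fell from 324 ± 8.88 CPM in parental to 108 ± 8.55 in clone 37 and 170 ± 13.0 in clone 15. VCAN thus fell by 1.61 on the log2 scale (SE 0.06, edgeR FDR 1.15e-12) in clone 37 and by 0.96 (SE 0.08, FDR 9e-10) in clone 15. PTX3, a pentraxin that helps cross-link hyaluronan, was counted 49, 71 and 46 times in the parental libraries and 3, 4 and 5 times in those of clone 37, at 4.39 ± 0.803 and 0.355 ± 0.0710 CPM. In clone 15 it stood at 1.22 ± 0.458 CPM and fell by 1.82 on the log2 scale (SE 0.28, edgeR FDR 5.21e-06). ITIH5, of the family whose heavy chains are coupled to hyaluronan, fell by 1.23 in clone 37 (SE 0.23, edgeR FDR 0.000248) and by 1.13 in clone 15 (SE 0.23, FDR 0.000251). It had 4.05 ± 0.335 CPM in parental and 1.88 ± 0.254 in clone 15. VCAN was 0.66 lower in clone 37 than in clone 15 on that scale (edgeR FDR 5.58e-09), the opposite order to HAS2.

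Enzymes that build the sulphated glycosaminoglycans, which draw on the same UDP-sugars, went both ways. Of 19 listed genes, all tested, clone 37 had 6 called higher and 4 lower and clone 15 had 8 higher and 4 lower, with medians of 0.04 and 0.17. The share called was 52.6% and 63.2%, against 54% and 51.4% of all genes. In clone 37 the count called higher was 3 without parental replicate 3 or clone 37 replicate 1. B3GAT3, which completes the linkage region of heparan and chondroitin sulphate, rose by 0.89 (SE 0.10, edgeR FDR 1.3e-07) in clone 15, from 28.0 ± 0.368 to 53.1 ± 9.27 CPM. EXTL1, a glycosyltransferase of the exostosin family, was counted 13, 6 and 16 times in the parental libraries and 88, 59 and 32 times in those of clone 15. It met the filter's limit in 3 libraries of clone 15 and 2 of parental, so its log2 change of 1.18, which was 0.37 with unstranded counts, is given without a test. The 8 genes counted as called higher in clone 15 include EXTL1. EXTL2, of the same family, fell by 0.73 in clone 37 (SE 0.07, edgeR FDR 2.33e-07). CHPF2, which takes part in chondroitin polymerisation, fell by 0.82 in clone 37 (SE 0.09, edgeR FDR 8.39e-07), from 56.4 ± 7.39 to 32.4 ± 2.59 CPM.

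By level per exon length, the order of the members changed mainly through HAS2. In parental cells HMMR (131 ± 8.28 TPM) came before HAS2 (55.0 ± 2.99), UGDH (40.0 ± 5.57), CEMIP2 (16.9 ± 2.04) and HYAL2 (9.75 ± 0.456), and the libraries of neighbours in this order did not overlap. HAS3 (1.92 ± 0.471) and CD44 (1.89 ± 0.465 TPM) did overlap, followed by HYAL1 (0.647 ± 0.115), CEMIP (0.0899 ± 0.0562) and HAS1 at 0. In clone 37 HMMR, UGDH, CEMIP2 and HYAL2 came first, at 109 ± 2.74, 30.3 ± 0.722, 27.5 ± 0.380 and 13.2 ± 1.06 TPM, and HAS2 had rank 5. Clone 15 had the same first 4 genes, at 66.4 ± 9.99, 40.1 ± 2.88, 22.8 ± 0.907 and 12.7 ± 0.947 TPM, and from HAS2 downwards the libraries of neighbouring genes HAS2, HAS3, CD44, CEMIP and HYAL1 overlapped.

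Between the clones 3 tested members beside HAS2 were called, CEMIP2 and HMMR higher and UGDH lower in clone 37, where 57.7% of the 17712 genes tested were called. The libraries of the clones did not overlap for 4 members, HAS2 included, beside 63.5% of all genes tested. HYAL2 differed by -0.05 (95% interval -0.25 to 0.15, edgeR FDR 0.7005) and HYAL1 by -0.15 (-1.01 to 0.71, FDR 0.791) on the log2 scale.

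The genes whose pattern over the 9 libraries was most like that of HAS2 were TCIM, MAGEA1, GTSF1, MAGEA6 and GABRA3. Likeness was the root mean square difference of log2(CPM + 0.5), centred on the parental mean, over 13019 protein-coding genes with a mean of at least 1 CPM. TCIM, a regulator of Wnt signalling that also lies on chromosome 8, differed by 0.38 and stood at 14.9 ± 2.61 CPM in parental, 0.0577 ± 0.0194 in clone 15 and 1.17 ± 0.450 in clone 37. MAGEA1 (0.45), GTSF1 (0.50), MAGEA6 (0.64) and GABRA3 (0.98) were at 4.15 to 12.3 CPM in parental and at or below 0.0895 CPM in the means of both clones. The added 0.5 CPM compresses such low values, so likeness here means a similar fall on this scale from a lower starting level. It is a description, since HAS2 was chosen for this pattern.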

How the data were processed

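RNA sequencing of 9 libraries was used, made per the labels' protocols from 500 ng of total RNA by ribosomal RNA depletion, a directional kit and 13 cycles of amplification. The authors deposited raw counts per gene, in the layout of STAR's gene counts. The submitters' processing notes name STAR 2.7.10a, FastQC 0.11.9 and hg38, and the annotation release is not given in the sources used here. Column 4 was used, which held 92.6% to 94.0% of the stranded gene counts. The 4 summary entries, which name no gene and took 40.3% to 49.1% of read pairs, stayed out of library sizes and tests.

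Symbols came from a table of gene names, and positions and exon lengths from GENCODE 29 (GRCh38), which held 58496 of 60683 gene IDs. The main test was edgeR 4.0.16 in R 4.3.3 (filterByExpr, TMM factors, then robust glmQLFit with glmQLFTest), run on the 6 libraries of each comparison, with Benjamini-Hochberg adjustment over all genes tested and a threshold of 0.05. The standard error is the log2 fold change over the square root of F, and a 95% interval is 1.96 standard errors to each side. TPM was computed here from the counts and exon-union lengths. The test was tested on simulated counts. Far fewer genes were changed in these than were called here, and the outcome is not reported here.

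Named genes were all 10 members, HAS2-AS1, the 2 most changed called genes of each list in each comparison and the 5 genes most like HAS2. A gene of the lysosomal list that the rule names is not reported here. The members and lists were chosen with earlier results of these data known. Alternatives were RLE size factors, DESeq2 1.42.0, no filter, a minimum of 1 CPM in 3 libraries, counts without strand, fitting the 9 libraries together, the replicate number as a block, depth thinned to that of the shallowest library, and each library left out in turn. Where nothing says that replicates came from separate cultures, p values measure only the spread between these libraries, which may be technical. No pair of replicates agreed within counting noise, with chi-square over degrees of freedom of 1.77 to 11.6.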

Additional observations from a re-analysis of the deposited data

Results flagged for a closer look

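Some genes differed between the clones by the direct test of clone 37 against clone 15 while at least 1 clone also differed from parental. Values are log2 differences, clone 37 minus clone 15, with adjusted p values from edgeR. Among the members, HAS2 differed by 1.07, given without a test because its values led to its choice. UGDH differed by -0.51 (edgeR adjusted p 1.48e-06), HMMR by 0.61 (0.000761) and CEMIP2 by 0.17 (0.0248). Among the UDP-sugar enzymes, GFPT1 differed by 1.08 (7.3e-15) and GFPT2, which was lower than parental in clone 15 and higher in clone 37, by 0.97 (7.61e-12). Of the lysosomal list, HEXA differed by -0.64 (6.88e-09) and HYAL3 by 0.48 (0.0267). The HYAL3 difference lost its call without clone 15 replicate 1 (0.46) or 3 (0.36) and without clone 37 replicate 2 (0.35), with DESeq2 (adjusted p 0.0567) and with depth thinned to the shallowest library (edgeR adjusted p 0.0558).

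Among matrix proteins that bind hyaluronan, PTX3 differed by -1.80 and ACAN by -1.43. Both met the count filter in 3 libraries of clone 15 and in 0 and 1 of clone 37, so they entered through the group where they are high and no p is given. ACAN, the cartilage proteoglycan aggrecan, lost its call without clone 37 replicate 2 (-1.18) or 3 (-0.94), and stood at -2.72 without clone 37 replicate 1. Among the enzymes of the sulphated glycosaminoglycans, CHPF2 differed by -1.20 (edgeR adjusted p 6.24e-14), lower than parental in clone 37 and higher in clone 15, and EXTL1 by -1.22, which was -0.28 with unstranded counts. EXTL1 met the filter in 3 libraries of clone 15 and 2 of clone 37, and is also given without a p. Of the mitotic list, KIF20A differed by -0.38 (2.03e-06) and CDK1 by 0.28 (0.000181).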

How the results depend on the processing

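Each of the 3 counts of genes called and the 3 counts of members called stayed within 1.5 times its value under all 14 alternatives. Genes called ranged from 7487 to 10027 in clone 37 against parental, 7997 to 9778 in clone 15 against parental and 9069 to 11033 between the clones. Members called ranged from 5 to 7, 4 to 6 and 3 to 6. HAS2 ranged from -3.86 to -3.71 in clone 37 and from -5.03 to -4.72 in clone 15. Of 316 values of members under an alternative, 290 kept their direction and their side of the threshold, 13 lost a call and 4 gained one, and the 9 that turned direction were never called. These exclude the values of members with no main test in that comparison, of which CEMIP was called in 6 and not in 8, and HYAL1 was not called in 3. CEMIP entered the fits that left out 1 library through clone 15, where it is high, so their calls are no test. With unstranded counts UGDH in clone 15 was -0.015, HYAL1 in clone 15 -0.37 and HYAL1 between the clones 0.28. Leaving out single libraries, UGDH in clone 15 ran from -0.046 (without parental replicate 1 or 3 it was below 0) to 0.20. Between the clones HYAL1 ran from -0.66 to 0.18 (above 0 without clone 15 replicate 2, at 0.11, or clone 37 replicate 3), CD44 from -0.11 (without clone 15 replicate 2) to 0.44, and HYAL2 from -0.095 to 0.023 (without clone 37 replicate 2). The cause was not tested. With the replicate number as a block, 8375, 8708 and 10490 genes and 6, 5 and 4 members were called, and it changed no call of a member. Same-numbered libraries did not deviate together: the 9 correlations ran from -0.205 to 0.0445, and 2 of 9 comparisons of a library with another group were highest at its own number, so the numbers were not taken as pairs. HAS1, HYAL1, CEMIP and HAS2-AS1 had too few counts for the main test in at least 1 comparison.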
